A study of Mus musculus with 14 samples.

Results

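Microglia, the resident macrophages of the brain, were compared between wild-type mice that underwent cerebral ischaemia followed by reperfusion (I/R) and wild-type mice that underwent sham surgery. The comparison rests on 8 of the study's 14 arrays, chosen by the genotype and treatment in their labels: 4 after I/R and 4 after sham surgery, each set lettered A to D. All wild-type mice were C57BL/6J males aged 12 to 14 weeks, operated on under isoflurane. The sample titles call the I/R treatment IPC, an abbreviation they do not explain, and the group is named here by its protocol. In the I/R group a filament blocked the middle cerebral artery for 15 min, and cells were collected 72 h after flow was restored. Microglia were sorted without culture from the cortex of the operated side, and their biotin-labelled RNA was hybridised to Affymetrix Mouse Gene 1.0 ST arrays. The other arrays, 3 after I/R and 3 after sham surgery, came from TLR4-/- mice and entered only the shared estimate of each gene's spread. The labels name no sort markers. The labels do not say whether the arrays of a group came from separate animals, so each p-value reflects array-to-array spread, which may be partly technical. Because each array holds the RNA of many cells, a lower value cannot tell fewer cells of a type from less RNA per cell.

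Values are log2 signals for 19938 genes, each represented by 1 row of the array. A signal at or below 4.67, the 95th percentile of 1027 olfactory receptor genes, is called background here, and 12707 genes (63.7%) lay above it in at least 1 wild-type group. The cells carried the markers of microglia on every wild-type array: P2ry12, Tmem119, Cx3cr1, Siglech, Csf1r, Fcrls and Olfml3 all lay between 10.76 and 11.88. Tlr4, which the wild-type mice carry, was between 8.57 and 8.92 on sham arrays A to D and between 8.14 and 8.48 after I/R, 1.39-fold lower (adjusted p = 0.0485, a call that ended under 8 of 16 alternatives, with adjusted p up to 0.138). Sham array C stood apart from the other wild-type sham arrays. Its correlation with them across genes, which are not independent replicates, was 0.9814 to 0.9865, against 0.9872 to 0.9916 with the sham arrays of TLR4-/- mice. For sham A, B and D these ranges overlapped. Sham B gave 0.9856 to 0.9889 with wild-type and 0.9872 to 0.9887 with TLR4-/- sham arrays. Sham D gave 0.9865 to 0.9889 and 0.9883 to 0.9909. Results that depend on sham array C are given with and without it.

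Microglia survey the brain with fine processes, take up debris and dying cells, and release cytokines and growth factors. When they leave the resting state they remodel the cytoskeleton, change how they use sugar and lipid, and may divide. After a transient arterial occlusion they meet oxygen and glucose loss, reperfusion and injured neurons.

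I/R changed 1950 genes of 19938 (9.78%) at a limma adjusted p under 0.05. Of these, 1226 were higher after I/R (6.15%) and 724 were lower (3.63%). With each array centred on its own median, which moves the median change over all genes from -0.06 to 0.00 on the log2 scale, 1300 were higher and 393 lower, and the higher share went from 62.9% to 76.8%. The 2 directions differed in size. Increases had a median of 0.81 on the log2 scale and reached 4-fold or more in 162 genes, whereas decreases had a median of -0.53 and reached 2-fold in 27 genes (54 without I/R B and 18 with arrays centred) and 4-fold in 0.

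In the fifth of genes with the highest sham signal, above 7.47, 381 of 3988 genes fell and 329 rose. Genes near background cannot show a decrease, so groups of lower signal were not compared with it. Interferon-stimulated, cell cycle and disease-associated microglia genes made up 246 of the 471 genes that rose by 2-fold or more (52.2%), but 308 of all 1950 changed genes (15.8%). The remaining 1642 changed genes, 918 higher and 724 lower, are the subject of most of what follows. The lists below were counted whole, so they also hold interferon, cell cycle and disease-associated genes. Named genes shared with the cell cycle list include Hmgb2, Chaf1a, Uhrf1, Ezh2, Dnmt1, Tyms, Kpna2 and Lmnb1. Those shared with the disease-associated list include Csf1, Igf1, Plin2, Fabp3, Cybb, Axl, Itgax, Itgal and Lilrb4a, and Cd274 is in the interferon list. Of all changed genes, 1151 kept their call and direction under each of 16 alternative analyses.

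**Figure D1:**
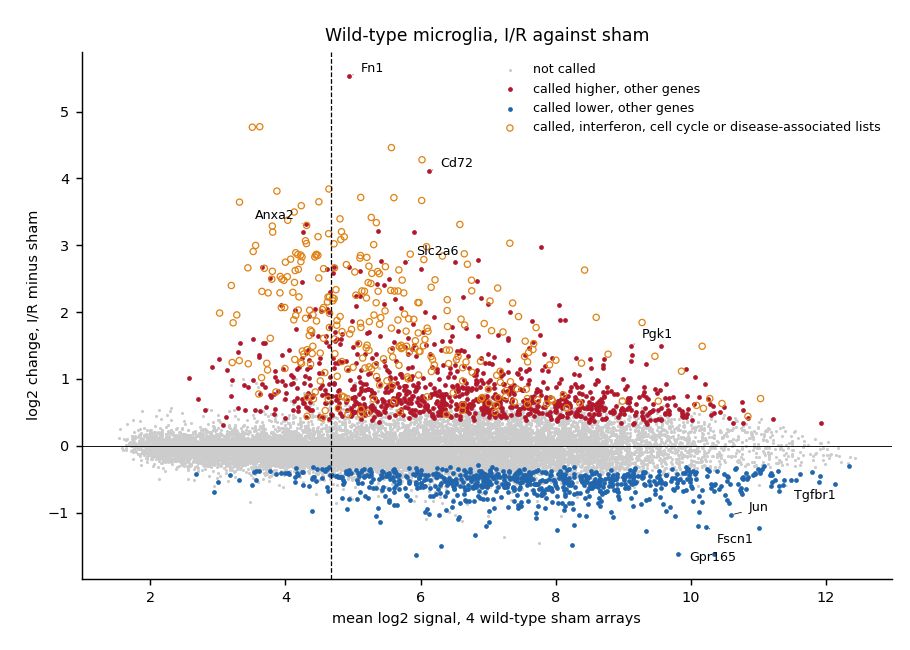
Log2 change after I/R (vertical axis) against the mean log2 signal of the 4 sham arrays (horizontal axis) for 19938 genes. Grey points are genes that were not called, red and blue points are called genes outside the interferon, cell cycle and disease-associated lists, and open orange circles are called genes in those lists; the dashed line marks the background level of 4.67. Increases reach 5.53 on the log2 scale and lie over a wide range of sham signals, while decreases are smaller.

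Among genes outside those lists, the largest increase was in Fn1, which encodes the matrix protein fibronectin and also marks monocytes. Fn1 read 5.23, 4.93, 5.01 and 4.62 on sham arrays A to D and 10.72, 10.05, 10.67 and 10.48 on I/R arrays A to D. All I/R arrays lay far above all sham arrays, a 46.4-fold difference (log2 change 5.53, SE 0.17, adjusted p = 6.03e-12). Cd72, an inhibitory lectin-like receptor best known on B cells, went from 5.99, 6.48, 5.89 and 6.15 to 10.13, 10.14, 10.38 and 10.30. The increase was 17.3-fold, with the I/R arrays close together (adjusted p = 5.36e-10).

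Genes with little or no signal in sham microglia were among the highest after I/R. Anxa2, a calcium-dependent membrane-binding annexin, read 4.46, 3.85, 4.38 and 4.50 after sham surgery, all background, and 7.56, 7.11, 7.88 and 7.90 after I/R. Measured against the background level, that is at least 7.71-fold (adjusted p = 2.71e-08). Rab7b, a small GTPase of the endosome and lysosome route, went from 4.70, 3.98, 4.19 and 4.18 to 7.26, 6.83, 7.94 and 7.80, at least 6.87-fold. Cd244a, a receptor of the signalling lymphocyte activation family, rose at least 5.73-fold and Cd5l, a secreted scavenger protein of macrophages, at least 3.16-fold. For these 4 genes the sham means were at background, so the fold is a lower bound.

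Further strong increases fell in genes of varied function with clear sham signals. Vim, the intermediate filament protein vimentin, read 5.94, 5.88, 5.66 and 6.11 after sham surgery and 9.09, 8.82, 9.35 and 9.13 after I/R, 9.18-fold higher. Gpr65, a receptor that senses acidity, went from 7.18, 7.01, 6.40 and 6.83 to 9.81, 9.32, 9.68 and 9.75, a 6.88-fold increase. Fxyd5, a modulator of the sodium pump, rose 7.85-fold, and Plp2, a membrane protein of the endoplasmic reticulum, rose 6.77-fold. Prr11, which is linked to cell division but not in the cell cycle list, rose 9.25-fold.

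Decreases were smaller, and those with the largest changes included genes with high sham signals. Gpr165, an orphan receptor, read 10.04, 9.72, 10.02 and 9.47 after sham surgery and 7.78, 8.44, 8.22 and 8.35 after I/R. That is 3.06-fold lower with no overlap (log2 change -1.62, SE 0.17, adjusted p = 3.89e-06). Itga9, an integrin subunit, read 8.59, 8.83, 9.18 and 8.77 after sham surgery and 7.72, 8.18, 7.63 and 7.57 after I/R, 2.10-fold lower. Abl1, a tyrosine kinase chosen here after its values were seen, was 9.06 to 9.44 on sham arrays and 8.33 to 8.41 on I/R arrays, with no overlap. Fscn1, which bundles actin filaments, fell 2.33-fold, and Tmem204, a membrane protein, fell 2.27-fold.

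**Figure D2:**
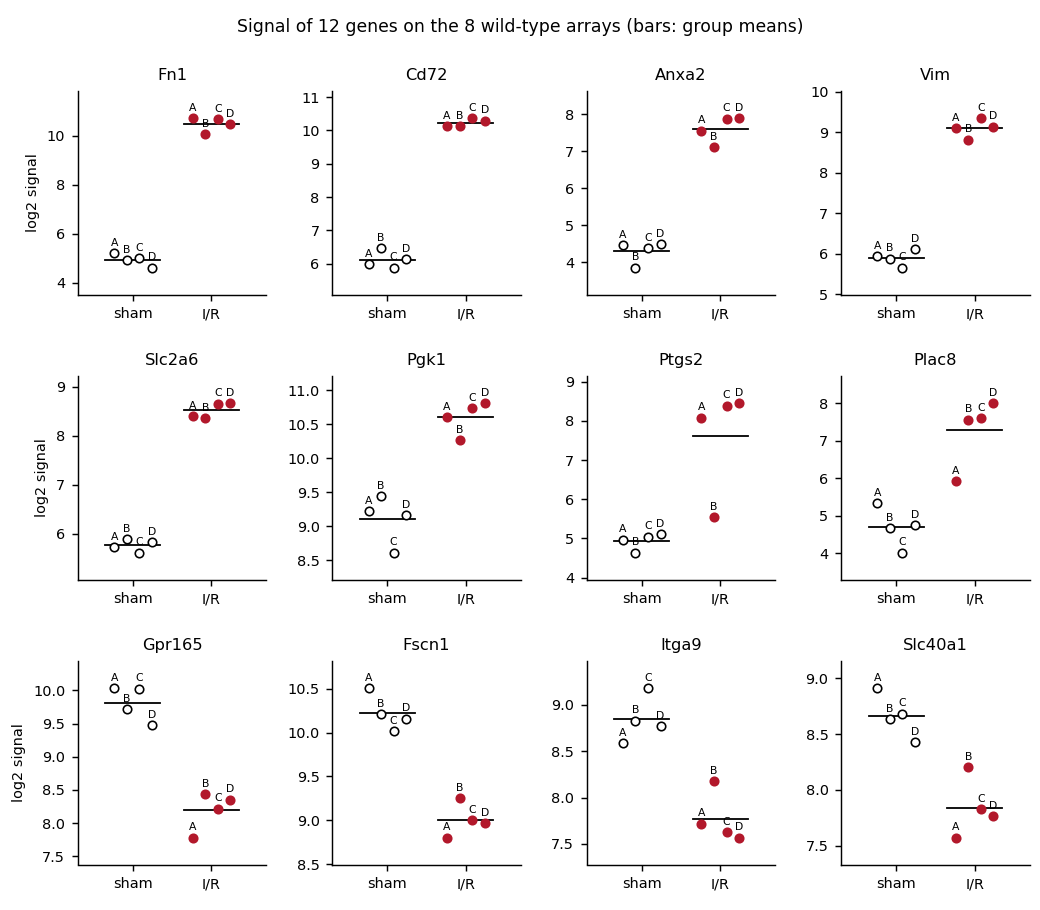
Log2 signal (vertical axes, each panel with its own scale) of 12 genes on the 8 wild-type arrays, with open circles for sham and filled circles for I/R, letters A to D naming the array and a bar at each group mean. Fn1, Cd72, Anxa2 and Vim are higher on all I/R arrays; for Ptgs2 array B and for Plac8 array A lie nearer to the sham arrays than the other I/R arrays do; Gpr165, Fscn1 and Itga9 are lower on all I/R arrays.

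Glycolysis turns glucose into pyruvate and lactate, and hypoxia-inducible factor 1 is a known activator of its genes through sites with the core letters ACGTG. Of 18 measured glycolysis genes, 6 rose and 0 fell, against 6.15% and 3.63% of all genes, and the median change of the list was 0.17. The lowest change was that of Aldoc, an aldolase gene also in the astrocyte list. It was -1.37 on the log2 scale without a call, but Aldoc was called lower under 3 of 16 alternatives. The genes that rose most clearly were Pgk1, Tpi1, Ldha, Pkm and Pgam1. Promoters of 3 of them, from RefSeq on GRCm38.p6, are shown because these members moved together; for Ldha it is 1 of 2 annotated starts. Capitals mark ACGTG on either strand, where CACGTG counts once on each strand. The search covered 250 bases before to 50 bases after each annotated start, of which the last 20 are not printed.
Ldha, chr7:46845554-46845833, plus strand: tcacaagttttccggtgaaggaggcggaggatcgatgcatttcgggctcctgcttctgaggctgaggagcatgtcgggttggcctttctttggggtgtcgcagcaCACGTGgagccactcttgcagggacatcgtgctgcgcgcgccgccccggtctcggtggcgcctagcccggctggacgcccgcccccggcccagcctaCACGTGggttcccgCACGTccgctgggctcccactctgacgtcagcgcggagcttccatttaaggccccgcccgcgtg
Pgk1, chrX:106186850-106187129, plus strand: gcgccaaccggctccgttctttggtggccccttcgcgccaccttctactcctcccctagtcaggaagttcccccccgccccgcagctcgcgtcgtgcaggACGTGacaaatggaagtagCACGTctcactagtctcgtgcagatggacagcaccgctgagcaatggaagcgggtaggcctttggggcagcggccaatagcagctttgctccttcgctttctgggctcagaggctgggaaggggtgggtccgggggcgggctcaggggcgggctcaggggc
Tpi1, chr6:124814129-124814408, minus strand: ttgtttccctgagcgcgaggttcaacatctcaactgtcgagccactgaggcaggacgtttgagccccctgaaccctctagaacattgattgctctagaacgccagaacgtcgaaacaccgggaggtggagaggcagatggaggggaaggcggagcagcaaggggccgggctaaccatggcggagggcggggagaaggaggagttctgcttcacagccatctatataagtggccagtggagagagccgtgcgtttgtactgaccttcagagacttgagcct

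The printed Ldha window held 5 matches and the window of its other start 0. The Pgk1 window held 2 and the Tpi1 window 0. Windows of Pgam1 and of 1 of the 2 annotated Pkm starts also held ACGTG, with 1 and 2 matches. Across the whole glycolysis list, 14 of 28 promoter windows held the letters, against 19.6% of 32851 windows in the table. The share was the same, 4 of 8, among windows of the members that rose, so within this list the letters did not set the risen genes apart. A match describes the letters only and is not evidence of binding.

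Pgk1, which makes the first ATP of the pathway's payoff phase, read 9.22, 9.44, 8.61 and 9.16 on sham arrays and 10.61, 10.27, 10.74 and 10.81 on I/R arrays, 2.83-fold higher (adjusted p = 2.36e-05). Tpi1, which interconverts the triose phosphates, read 8.62, 8.60, 8.34 and 9.25 on sham arrays and 9.67 to 10.11 on I/R arrays, 2.24-fold higher. Ldha, which makes lactate, rose 2.05-fold from a range of 9.75 to 10.42 to one of 11.05 to 11.18. None of these groups overlapped. Of the early steps, Pfkp, a phosphofructokinase, rose from background to an I/R mean of 4.68 (adjusted p = 0.0319), a call that ended without I/R A, I/R D, sham C or sham D and with only the wild-type arrays in the model (adjusted p 0.0522 to 0.111). Hk2, a hexokinase, was 9.02 to 9.08 after sham surgery and 8.89 to 9.12 after I/R, and the glucose carrier Slc2a1 was 8.99 to 9.66 and then 9.39 to 9.55, neither past the test.

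Among the sugar and lactate carriers, members moved in opposite directions. Slc2a6, a glucose carrier of lysosomal membranes, read 5.73, 5.90, 5.62 and 5.83 after sham surgery and 8.40, 8.36, 8.66 and 8.67 after I/R, 6.74-fold higher (SE 0.20 on the log2 scale, adjusted p = 4.61e-08). Slc2a5, a fructose carrier that marks resting microglia, read 10.20, 10.08, 10.08 and 10.30 and then 9.04, 9.73, 9.26 and 9.24, 1.80-fold lower. Slc16a7, a carrier of lactate and pyruvate, fell 1.5-fold. In the tricarboxylic acid cycle 2 of 24 genes rose, 1 fell, 20 changes were positive and the median was 0.29. The called shares, 8.33% higher and 4.17% lower, were near the 6.15% and 3.63% of all genes. Suclg2, a subunit of succinyl-CoA ligase, rose 1.33-fold and Fh1, fumarate hydratase, 1.45-fold, but neither passed without sham C (adjusted p = 0.0502 and 0.0634), and Fh1 also lost its call without I/R A, I/R C or I/R D and with only the wild-type arrays in the model. Idh2, an isocitrate dehydrogenase, fell 1.48-fold, a call that held in all alternatives.

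Genes of the respiratory chain, which moves electrons to oxygen and makes ATP in mitochondria, were higher after I/R in every complex examined. In complex I, 10 of 34 measured subunits rose, 0 fell and all 34 changes were positive, with a median of 0.42. In complexes III and IV with cytochrome c, 11 of 20 rose and all 20 were positive (median 0.51). In ATP synthase, 5 of 15 rose and all 15 were positive (median 0.49). Ndufa1, a small subunit of complex I, read 7.99, 7.81, 6.85 and 7.75 on sham arrays and 8.74, 8.64, 8.72 and 8.91 on I/R arrays, 2.22-fold higher (adjusted p = 0.000642). Cox7b, of complex IV, rose 1.66-fold and Atp5k, of ATP synthase, 1.84-fold.

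The size of these counts depended on sham array C. The mean over the complex I list was 7.72 on sham C, 8.27 to 8.42 on the other sham arrays and 8.58 to 8.84 on the I/R arrays, so the groups remained apart without it. Without sham C, 5 complex I subunits and 6 of complexes III and IV with cytochrome c passed the test. Without I/R D the counts were 5 and 5, and without I/R C 6 and 7. The ATP synthase count was 4 without sham C and 8 without sham D.

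**Figure D3:**
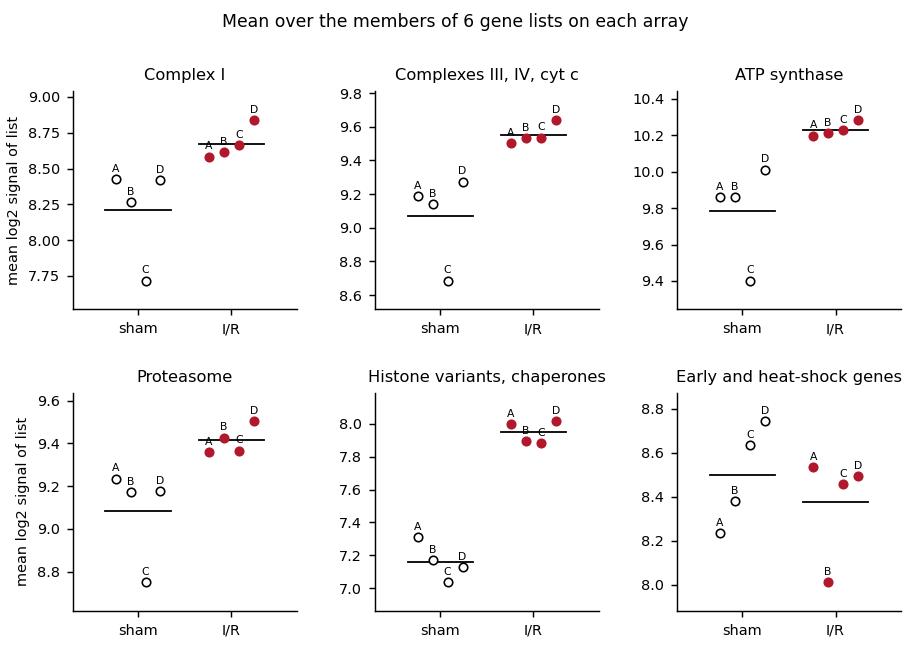
Mean log2 signal over the measured members of 6 gene lists (vertical axes, each panel with its own scale) on each wild-type array; open circles are sham, filled circles I/R, letters name the array. Sham array C is the lowest point for complex I, complexes III and IV, ATP synthase and the proteasome, and in these 4 lists all I/R arrays lie above all sham arrays.

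Lipid handling changed in single genes rather than across the list: 6 of 26 genes rose, 1 fell and the median change was 0.04. Hcar2, a receptor for niacin and ketone bodies, read 5.41, 5.01, 4.73 and 5.04 after sham surgery and 7.10, 7.03, 7.26 and 7.18 after I/R, 4.28-fold higher with no overlap. Plin2, the coat protein of lipid droplets, rose 3.79-fold from 8.31 to 8.91 on sham arrays to 10.15 to 10.72. Fabp3, a fatty acid-binding protein, rose 4.77-fold, and Nceh1, which frees cholesterol from its esters, rose 2.84-fold. Mylip, a ubiquitin ligase that lowers the low-density lipoprotein receptor, fell 1.41-fold. In fatty acid oxidation 5 of 18 genes rose, led by Acadl, a long-chain acyl-CoA dehydrogenase, at 1.91-fold. That count was 2 without I/R A, I/R C or sham C and 3 without I/R D or sham B.

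One-carbon and serine metabolism, which supplies carbon for nucleotides, had 9 of 22 genes higher and 0 lower (median 0.30), and 5 higher without sham C. Psat1, an enzyme of serine synthesis, read 7.09, 7.45, 6.88 and 7.85 on sham arrays and 9.61, 9.11, 9.27 and 9.30 on I/R arrays, 4.0-fold higher with no overlap (adjusted p = 1.43e-06). Tyms, which makes thymidylate, rose 3.50-fold, Mthfd1l 1.83-fold and Shmt2 1.80-fold, the last 2 being mitochondrial folate enzymes. Asns, which makes asparagine, rose 3.03-fold, and Slc43a3, a purine base carrier, rose 6.75-fold. The glutamate carrier gene Slc1a3, which is also in the astrocyte list, was 1.64-fold lower. The part of astrocyte carry-over in this decrease was not tested.

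Among genes that build, import and destroy proteins, a minority of each list rose. Nuclear import and export factors had 10 of 30 members higher and 0 lower (median 0.28), with Kpna2, an importin, 2.36-fold higher and Ran, the GTPase that gives transport its direction, 1.77-fold higher. Kpna2 read 8.86, 8.49, 7.88 and 8.31 after sham surgery and 9.79, 9.58, 9.48 and 9.62 after I/R. Translation initiation factors had 7 of 25 higher and 1 lower: Eif5a rose 1.98-fold and Eif4a2 fell 1.47-fold. Constitutive proteasome subunits had 8 of 31 higher with all 31 changes positive (median 0.33), but 2 higher without I/R C, I/R D or sham C, 4 without I/R A or I/R B and 5 without sham B. Mitochondrial ribosomal proteins had 9 of 77 higher (median 0.26), 4 without I/R D or sham C and 16 without sham D, whereas cytosolic ribosomal proteins had 5 of 60 higher (8.33%, against 6.15% of all genes), 3 without sham C or any 1 of the I/R arrays and 8 with trend and robust variance settings.

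Histone variants and chaperones, many of which serve dividing cells, had 12 of 21 members higher and 0 lower (median 0.65), and 11 kept that call in all alternatives. Most of the 12, Hmgb2 and Chaf1a among them, are also in the cell cycle list. Hmgb2, a chromatin protein of the high mobility group, read 8.53, 8.86, 8.77 and 8.94 on sham arrays and 10.30, 9.97, 10.08 and 10.23 on I/R arrays, 2.59-fold higher. Cbx5, a heterochromatin protein, rose 2.97-fold, and Chaf1a, a chromatin assembly factor subunit, rose 3.49-fold. Writers and erasers of chromatin marks as a list did not shift upwards, with a median of -0.17, 3 of 35 higher and 1 lower, the last only while I/R A to D, sham B and sham C were all included and arrays not centred. The 3 that rose, Uhrf1, Ezh2 and Dnmt1, serve the copying of marks at replication.

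The cytoskeleton changed in both directions. Myosins and tropomyosins had 9 of 22 genes higher and 0 lower (median 0.37). Myo1e, a membrane-linked myosin of phagocytic cups, read 6.82, 6.35, 6.67 and 6.68 after sham surgery and 8.86, 8.60, 8.93 and 9.04 after I/R, 4.70-fold higher (adjusted p = 1.13e-08). Tpm4, a tropomyosin, rose 2.33-fold. Of the actin regulators 11 of 35 rose (7 without sham C) and 3 fell (1 without I/R A, I/R C, sham A or sham B and with arrays centred). Capg, which caps actin filaments, rose 4.61-fold and Flna, which cross-links them, 1.62-fold, against the decrease of Fscn1 given above. Tubb6, a tubulin, rose 2.60-fold, and Lmnb1, of the nuclear lamina, 3.92-fold.

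Adhesion receptors were split as well, with 5 of 28 higher and 5 lower. Cd44, the hyaluronan receptor, read 4.65, 4.74, 5.09 and 4.80 on sham arrays and 6.60, 6.07, 6.52 and 6.46 on I/R arrays, 3.01-fold higher. Pecam1, an adhesion molecule of endothelium and leukocytes, read 7.38, 7.03, 6.83 and 7.10 and then 6.18, 6.49, 5.98 and 5.96, 1.91-fold lower with no overlap. Among 24 integrins 3 rose and 2 fell, 16 changes were negative and the median was -0.09. Itgax rose 3.01-fold, Itga5 1.72-fold and Itgal 1.63-fold, and Itga9 and Itgav fell. Under some alternatives the lower count was 1. Itga5 encodes a subunit of the main fibronectin receptor, and its ligand gene Fn1 rose as given above.

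Matrix genes other than Fn1 changed less. Of 34 measured matrix proteins 6 rose and 0 fell, with a list median of -0.09. Sdc3, a heparan sulphate proteoglycan, rose 2.88-fold, Tgfbi, a secreted integrin ligand, 2.42-fold and Ecm1 1.85-fold. Matrix proteases and their inhibitors had 10 of 31 higher, and all 10 held in the alternatives, while the 2 lower members did not. Mmp12, the macrophage elastase, read 4.79, 4.54, 4.91 and 4.67 after sham surgery and 6.28, 7.10, 6.61 and 5.73 after I/R, 3.26-fold higher, with array D nearest to the sham arrays. Serpinb6a, an inhibitor of serine proteases, rose 3.28-fold and Cstb, an inhibitor of cysteine cathepsins, 2.57-fold. Plaur, the urokinase receptor, rose 2.32-fold. Its ligand Plau was 8.88 to 9.44 on sham arrays and 8.99 to 9.44 on I/R arrays and did not pass the test.

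Annexins and S100 proteins, which bind membranes and partners when calcium rises, had 6 of 17 members higher and 0 lower (median 0.30). Beside Anxa2, Anxa5 read 8.71, 9.06, 8.10 and 8.97 on sham arrays and 9.78, 10.08, 10.08 and 10.13 on I/R arrays, 2.47-fold higher. S100a4 rose 2.40-fold. S100a10, the usual partner of annexin A2, lay between 5.73 and 6.29 on sham arrays and between 5.48 and 6.11 on I/R arrays, with overlap and no call.

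**Figure D4:**
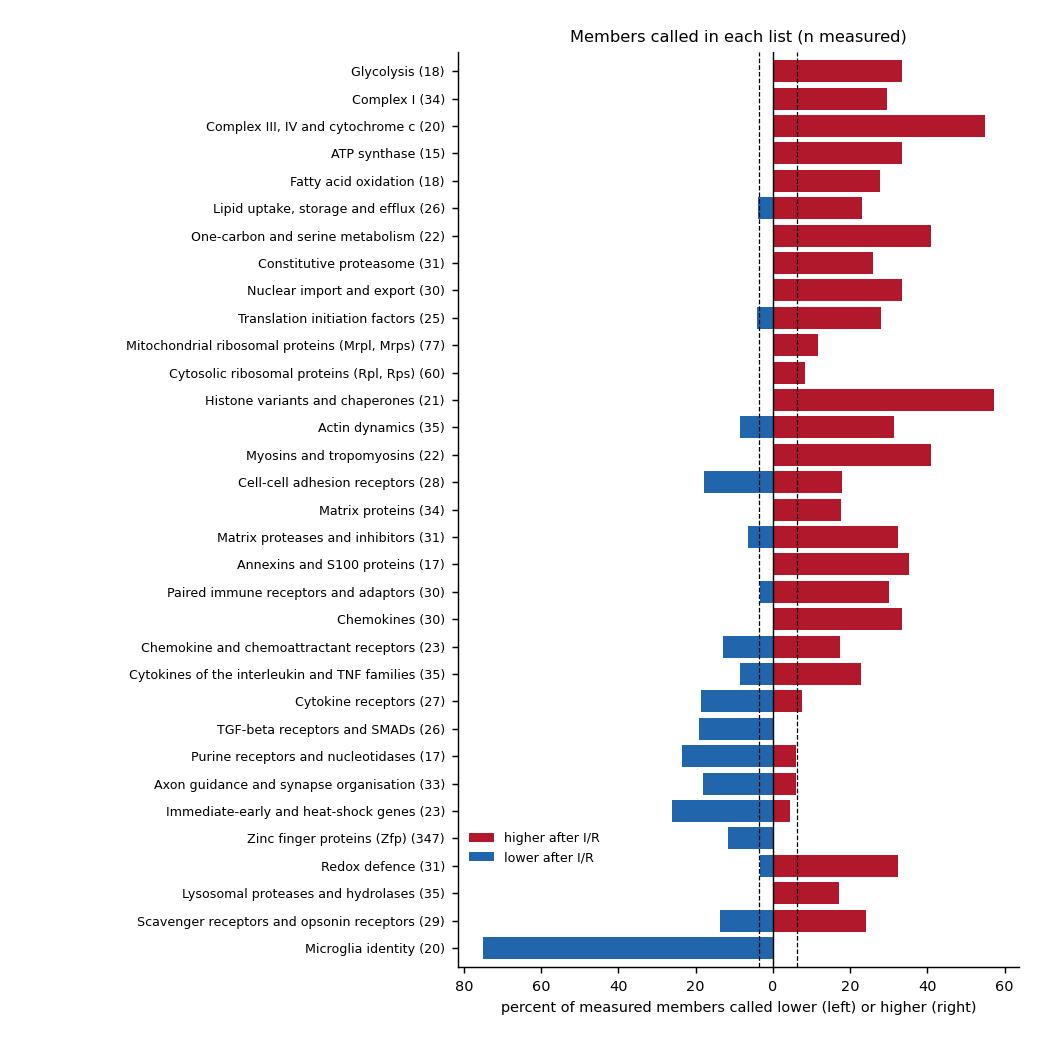
Percentage of the measured members of 33 gene lists and families that were higher (red, to the right) or lower (blue, to the left) after I/R at a limma adjusted p under 0.05; the number of measured members stands beside each name and dashed lines mark 6.15% and 3.63%, the shares of all genes. Histone variants, respiratory complexes, myosins and one-carbon metabolism lie to the right, microglia identity, TGF-beta receptors, purine receptors and early genes to the left, and adhesion and scavenger receptors on both sides.

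Paired immune receptors, which carry inhibitory or activating signals at the myeloid surface, had 9 of 30 genes higher and 1 lower (median 0.15), and all 10 calls held in the alternatives. Pdcd1, the inhibitory receptor PD-1 of T cells, read 5.13, 5.05, 5.14 and 5.11 on sham arrays and 7.54, 7.97, 7.60 and 7.77 on I/R arrays, 6.12-fold higher (adjusted p = 3.09e-08). Its ligand gene Cd274, for PD-L1, rose 2.25-fold, from 6.47 to 6.72 on sham arrays to 7.62 to 8.01. Cd300lf, an inhibitory receptor for lipids, rose 6.36-fold, Lilrb4a, another inhibitory receptor, 5.13-fold and Milr1 3.63-fold. T cell receptor and immunoglobulin segments had 0 of 17 genes past the test in either direction, against 6.15% of all genes higher and 3.63% lower. Only 4 of the 17 lay above background, so this count cannot show whether T cells were present. Cd3e, a T cell marker, was 4.82 to 5.09 on sham arrays and 4.81 to 4.99 on I/R arrays. The T cell genes Lck and Trac were not in the gene table. The part of T cells in the increase of Pdcd1 was not tested.

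Chemokines rose while their receptors did not as a list. Of 30 measured chemokines 10 rose and 0 fell (median 0.31). Ccl12, a ligand of CCR2, read 9.62, 9.78, 9.0 and 9.81 after sham surgery and 10.92, 10.92, 11.14 and 11.23 after I/R, 2.82-fold higher. Cxcl16 rose 2.06-fold and Cxcl13, a B cell attractant, 2.37-fold. Of 23 receptors of chemoattractants 4 rose and 3 fell (median -0.07). The higher count was 1 without I/R A, I/R C or I/R D and 2 without sham B or sham C, and 6 with arrays centred, while the lower count was 6 without sham A. Cxcr4, the receptor of CXCL12, read 4.83, 4.74, 5.08 and 5.03 on sham arrays and 5.88, 5.13, 6.69 and 6.52 on I/R arrays, 2.20-fold higher, with I/R B just above the sham arrays. Cx3cr1, the receptor of neuronal fractalkine, fell 1.34-fold.

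Inflammatory cytokines did not move as one group: 8 of 35 rose, 3 fell and the median was -0.06. Of the 8 that rose, Tnf had the smallest limma p. Il1b read 6.26, 6.78, 6.82 and 7.52 on sham arrays and 8.35, 7.67, 8.87 and 9.04 on I/R arrays, 3.11-fold higher (adjusted p = 0.00105), with sham D and I/R B lying close. Il1a, the other agonist of the same receptor, was 10.04 to 10.45 on sham arrays and 9.88 to 10.40 on I/R arrays, with no call. Il1rn, their natural antagonist, rose 1.79-fold. Mif, a pro-inflammatory cytokine, rose 2.22-fold, Tnfsf9, a costimulatory ligand, rose (the sham mean was background) and Il16 fell 1.54-fold.

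The interleukin-6 family is built on the shared signalling receptor gp130, encoded by Il6st. No list was drawn up for this family, and the members below come from the cytokine and cytokine receptor lists. Il6 read 6.91, 7.19, 6.21 and 5.97 on sham arrays and 5.22, 5.69, 5.23 and 5.88 on I/R arrays. It was 2.09-fold lower (log2 change -1.06, SE 0.25, adjusted p = 0.0116), and sham D lay just above I/R D. Il6ra, its specific receptor, fell 1.76-fold, from 9.47, 9.28, 9.48 and 9.11 to 8.55, 8.99, 8.41 and 8.13. Il6st itself fell 1.49-fold, with 10.38 to 10.67 on sham arrays and 9.92 to 10.15 on I/R arrays. Lifr, the receptor of leukaemia inhibitory factor, fell 1.93-fold and Clcf1, a ligand of the family, 1.53-fold. These 5 decreases held in all alternatives. Osm, which encodes oncostatin M, went against them at 2.26-fold higher (adjusted p = 0.0148), a call that ended without I/R D (adjusted p = 0.0597) and without sham C (adjusted p = 0.0508). Among all cytokine receptors 2 of 27 rose and 5 fell, and 3 fell without I/R D.

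The growth factor genes Csf1 and Igf1 rose, and their receptor genes did not. Csf1, the main growth factor of microglia, read 5.31, 5.08, 5.69 and 5.16 on sham arrays and 7.29, 6.95, 7.37 and 7.46 on I/R arrays, 3.88-fold higher (adjusted p = 1.29e-06). Its receptor gene Csf1r fell 1.31-fold (adjusted p = 0.014), from 11.68 to 11.88 to 11.28 to 11.49, a call lost without I/R D (adjusted p = 0.0559). Igf1, insulin-like growth factor 1, read 6.46, 6.45, 6.34 and 6.35 and then 7.72, 8.15, 8.32 and 8.54, 3.44-fold higher, while Igf1r was 6.16 to 6.79 and 5.71 to 6.13 without passing the test. Hgf, hepatocyte growth factor, rose at least 2.95-fold from background. Hbegf, a ligand of the epidermal growth factor receptor, fell 1.95-fold. Across the 39 measured growth factors 5 rose (3 without I/R D), 1 fell (3 without sham A) and the median was -0.07.

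TGF-beta signalling, which maintains the resting state of microglia, had 0 of 26 members higher and 5 lower, with a median of -0.19 and 4 calls held in all alternatives. Tgfbr1 read 11.37, 11.35, 11.51 and 11.25 after sham surgery and 10.74, 10.99, 10.70 and 10.71 after I/R, 1.5-fold lower (adjusted p = 0.00294). Eng, the co-receptor endoglin, read 8.49, 8.48, 8.45 and 8.51 and then 7.42, 8.01, 7.53 and 7.51, 1.82-fold lower. Acvr2a, an activin receptor, fell 1.58-fold and Smurf1, a ubiquitin ligase that limits the pathway, 1.36-fold. Tgfbr2 was 9.60 to 9.70 on sham arrays and 9.33 to 9.60 on I/R arrays and did not pass the test. The ligand gene Tgfb1 overlapped between groups, at 7.87 to 8.70 and 7.44 to 8.03. Sall1, a transcription factor that marks microglia and depends on this pathway, fell 1.56-fold.

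Genes that mark resting microglia fell by modest amounts while their signals remained high. Of 20 measured microglia identity genes 15 fell and 0 rose, all 20 changes were negative and the median was -0.50. The count lower was 10 without I/R D. Adgrg1, an adhesion receptor, read 10.31, 10.19, 9.92 and 10.07 on sham arrays and 8.98, 9.58, 9.07 and 8.88 on I/R arrays, 1.99-fold lower with no overlap (adjusted p = 0.000168). Tmem119 fell 1.43-fold, as did Siglech, and Selplg, a selectin ligand, fell 1.37-fold.

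Prostaglandin E2 genes changed at several steps. Ptgs2, the inducible cyclooxygenase, read 4.97, 4.64, 5.05 and 5.11 on sham arrays and 8.08, 5.54, 8.39 and 8.46 on I/R arrays. It was 6.40-fold higher (log2 change 2.68, SE 0.45, adjusted p = 0.00082), but I/R B lay close to the sham arrays. Ptger4, a receptor that raises cyclic AMP, read 4.96, 5.36, 4.63 and 4.96 and then 7.01, 6.47, 6.91 and 7.01, 3.66-fold higher. Ptger3, a receptor of opposite coupling, fell 1.67-fold, and Hpgd, which inactivates prostaglandins, fell 1.46-fold from a high level of 11.06 to 11.38. The receptor Ptger2 and the synthase Ptges were at background in both groups. In the wider eicosanoid list 3 of 28 rose and 4 fell.

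In a list of 17 purine receptors and nucleotidases, which also holds the lysophosphatidylserine receptor Gpr34, 4 fell, 3 of them in all alternatives. P2ry14, whose group means were at background, was the 1 that rose. P2ry12, P2ry13 and Gpr34 are also among the microglia identity genes counted as lower above. Of the 17 changes 10 were negative. P2ry13, an ADP receptor, read 12.20, 12.10, 12.16 and 12.10 on sham arrays and 11.46, 11.69, 11.48 and 11.61 on I/R arrays, 1.49-fold lower (adjusted p = 0.00115). Entpd1, the surface enzyme CD39 that breaks down ATP and ADP, fell 1.52-fold and Gpr34 1.40-fold. P2ry12, the receptor that draws microglial processes to ATP, fell 1.30-fold (adjusted p = 0.0209) without overlap. Its call ended under 5 alternatives, among them without I/R A (adjusted p = 0.0686) and with arrays centred (adjusted p = 0.057).

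**Figure D5:**
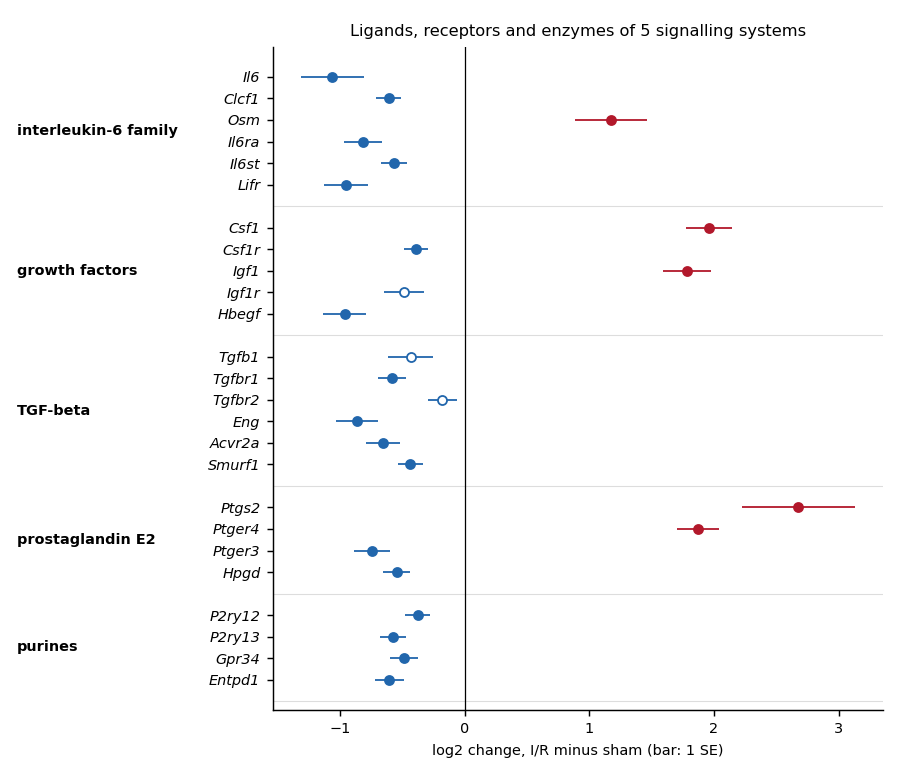
Log2 change after I/R (horizontal axis) of ligand, receptor and enzyme genes of 5 signalling systems, with bars of 1 standard error from the limma model; filled symbols passed an adjusted p under 0.05 and open symbols did not. In the interleukin-6 group the genes shown other than Osm, and all those shown for TGF-beta, lie to the left of 0, Csf1 and Igf1 lie to the right of their receptors, and Ptgs2 and Ptger4 lie opposite to Ptger3 and Hpgd. Gpr34, a lysophosphatidylserine receptor, is drawn with the purine genes.

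Axon guidance genes, which microglia also express, had 2 of 33 members higher and 6 lower. Sema4b, a membrane semaphorin, read 7.36, 6.97, 6.96 and 6.76 after sham surgery and 5.85, 5.99, 5.67 and 5.97 after I/R, 2.20-fold lower (adjusted p = 5.02e-05). Plxna4, a semaphorin receptor subunit, fell 1.99-fold, from 8.58 to 9.01 to 7.35 to 8.03. Sema6d fell 1.87-fold and Sema4g 1.75-fold. Plxnc1, another plexin, rose at least 2.15-fold from background, and Nrp2, a semaphorin co-receptor, rose 1.47-fold.

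Early response genes showed no general rise at 72 h. In a list of immediate-early and heat-shock genes 1 of 23 was higher and 6 lower (median -0.16). Jun, a subunit of the AP-1 transcription factor, read 10.69, 10.72, 10.42 and 10.53 on sham arrays and 9.80, 9.50, 9.42 and 9.49 on I/R arrays, 2.05-fold lower (adjusted p = 3.61e-05). Jund fell 1.55-fold and Btg2, an antiproliferative gene, 1.75-fold. Dusp6, a phosphatase that limits ERK, fell 1.73-fold from 9.27 to 9.66 to 8.43 to 8.81. The count of lower MAP kinase feedback genes was 5 of 27, 2 without I/R C, I/R D or sham C and with arrays centred, and 3 without I/R A or I/R B. The single higher early gene, Nr4a1, overlapped between groups, since I/R B read 5.57 against 7.67 to 8.23 on the other I/R arrays (adjusted p = 0.042). Its call ended under 9 of 16 alternatives, with adjusted p up to 0.14, among them without I/R A (0.134).

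Of 43 myeloid transcription factors 5 rose and 9 fell. Id2, an inhibitor of helix-loop-helix factors, read 7.45, 7.39, 7.70 and 7.65 after sham surgery and 9.09, 8.38, 9.09 and 9.07 after I/R, 2.57-fold higher. Klf10 rose 2.0-fold. Cebpd, a factor of acute inflammation, fell 1.59-fold and Etv5, an ETS factor, 1.41-fold. Spi1, the master factor PU.1 of macrophages, was 8.72 to 9.48 on sham arrays and 8.88 to 9.0 on I/R arrays and did not pass the test. The lower count was 5 with arrays centred and without I/R C, I/R D or sham B, and the higher count was 3 without I/R A, I/R C, I/R D or sham C.

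Zinc finger genes of the Zfp family, many of which encode DNA-binding repressors, leaned lower. Of 347 measured genes 40 fell and 1 rose, 11.5% lower against 3.63% of all genes, with a median change of -0.25. The number lower was 22 with arrays centred, 26 without I/R A and 25 without I/R C or I/R D. Zfp691 read 9.35, 9.17, 8.93 and 9.14 on sham arrays and 8.16, 8.58, 7.98 and 8.25 on I/R arrays, 1.87-fold lower, and Zfp113 fell 1.81-fold. Both were without overlap and held in all alternatives.

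Among 300 measured miRNA genes, 91 of them above background in a wild-type group, 5 were lower (1.67%, against 3.63% of all genes) and 0 higher, so the share was not above the background, and 3 of the decreases held in all alternatives. The rows are annotated to miRNA genes, so their precursor and mature forms cannot be told apart in these values. The mature 3′ arms of these 3 genes are shown because 2 of them share a seed, the bases 2 to 8 that pair with targets, set in capitals. Sequences are from RefSeq on GRCm38.p6.
miR-103-3p, from Mir103-2, chr2:131288103-131288125, plus strand: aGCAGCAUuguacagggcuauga
miR-107-3p, from Mir107, chr19:34820700-34820722, minus strand: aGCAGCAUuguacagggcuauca
miR-130b-3p, from Mir130b, chr16:17124071-17124092, minus strand: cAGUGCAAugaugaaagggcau

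Mir103-2 read 6.49, 6.62, 6.61 and 5.49 on sham arrays and 4.66, 5.35, 5.12 and 4.10 on I/R arrays, 2.82-fold lower (log2 change -1.5, SE 0.32, adjusted p = 0.00605), with sham D only slightly above I/R B. Mir107, whose mature form carries the same seed, read 4.54, 4.80, 5.36 and 4.69 and then 4.26, 4.33, 4.23 and 4.27 (adjusted p = 0.0133). All I/R values of Mir107 were background. Mir130b, with another seed, went from 4.68 to 4.72 on sham arrays to 4.16 to 4.31, also background after I/R. Pank2, the gene within which Mir103-2 lies, was 8.79 to 8.98 on sham arrays and 8.60 to 8.95 on I/R arrays (adjusted p = 0.599). The gene that holds Mir107 changed by -0.01 on the log2 scale (adjusted p = 0.985). The one that holds Mir130b changed by 0.85, opposite to Mir130b, without passing the test (adjusted p = 0.063). The number of lower miRNA genes was 3 without I/R A, 8 with array weights and 15 without sham A.

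Redox genes, which keep thiols reduced and remove peroxides, had 10 of 31 members higher and 1 lower (median 0.29). Glrx, glutaredoxin, read 7.39, 7.49, 6.96 and 7.33 on sham arrays and 8.79, 8.79, 8.99 and 9.05 on I/R arrays, 3.05-fold higher (adjusted p = 8.24e-08). Prdx4, a peroxiredoxin of the endoplasmic reticulum, rose 2.75-fold, Prdx1 1.64-fold and Txn1, thioredoxin, 1.5-fold. Cybb, the catalytic subunit of the phagocyte NADPH oxidase, which makes superoxide, rose 4.40-fold from 6.91 to 7.89 on sham arrays to 9.10 to 9.80. Nqo1, a quinone reductase, was at background in both groups.

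Iron and other metals were handled by a changed set of genes, 5 of 28 higher and 1 lower. Mt2, a metallothionein that binds zinc and copper, read 5.19, 5.50, 4.64 and 5.07 after sham surgery and 7.13, 6.86, 7.48 and 7.90 after I/R, 4.74-fold higher. Hmox1, which breaks down haem, rose 1.83-fold, with 8.38 to 9.28 on sham arrays and 9.30 to 9.80 on I/R arrays. Slc39a14, a zinc and iron importer, rose 2.40-fold. Slc40a1, the iron exporter ferroportin, read 8.92, 8.64, 8.68 and 8.43 and then 7.57, 8.20, 7.83 and 7.76, 1.77-fold lower with no overlap (adjusted p = 0.000619). Fth1, ferritin heavy chain, was 11.92 to 12.18 and 11.86 to 12.02 without a call.

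Lysosomal hydrolases did not move together, with 6 of 35 higher, 0 lower and a median of 0.04. Gla, which removes terminal galactose from lipids, read 7.67, 6.84, 6.50 and 6.33 on sham arrays and 9.32, 9.10, 9.39 and 9.39 on I/R arrays, 5.52-fold higher (adjusted p = 2.24e-06). Galc, another galactose-removing enzyme, rose 1.80-fold and Gusb, a glucuronidase, 1.66-fold. The abundant cathepsin genes Ctsd (12.09 to 12.21 on sham arrays, 11.95 to 12.05 on I/R arrays) and Ctsb (11.60 to 11.73, then 11.63 to 11.73) were not called. The motif CACGTG, searched as written since it reads the same on both strands, was in 25.6% of 39 promoter windows of this list and 7.15% of all windows, and in 1 of 6 windows of the members that rose.

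Of 29 scavenger and opsonin receptors, which take up debris and dying cells, 7 rose, all in every alternative, and 4 fell. The lower count was 1 without I/R D or sham C and 2 without I/R C or sham B and with arrays centred. Axl, a receptor tyrosine kinase that takes up apoptotic cells, read 6.22, 5.70, 5.32 and 5.90 on sham arrays and 6.87, 7.69, 7.58 and 7.87 on I/R arrays, 3.28-fold higher. Mertk, its relative, fell 1.43-fold from 11.08 to 11.60 to 10.54 to 10.92 (adjusted p = 0.0166, and 0.0662 without I/R D and 0.0517 without sham C). Elmo1, which links such receptors to actin, fell 1.55-fold, and Olr1, a receptor of oxidised lipoprotein, rose. In the complement list 4 of 24 genes rose and 0 fell. Cfb, factor B of the alternative pathway, rose 4.19-fold, from 5.52 to 6.00 to 6.92 to 8.25, and Vsig4, a complement receptor, rose at least 3.05-fold from background. C1qa was 10.83 to 11.40 on sham arrays and 10.77 to 11.13 on I/R arrays, without a call.

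Genes chosen only after their values were seen add to these groups. Tspo, the mitochondrial membrane protein that is the target of imaging tracers for activated microglia, read 6.13, 6.35, 5.76 and 6.55 on sham arrays and 7.98, 7.96, 8.27 and 8.30 on I/R arrays, 3.82-fold higher (adjusted p = 1.34e-05). Xdh, xanthine oxidoreductase, rose at least 3.82-fold from background. Txnip, which binds thioredoxin and restrains glucose uptake, fell 1.60-fold from 11.16 to 11.41 to 10.57 to 10.67. Prkca and Prkce, isoforms of protein kinase C, fell 1.90-fold and 1.78-fold.

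Markers of other cells were examined because a sort can carry them over. Of 20 monocyte markers 9 rose and 0 fell, 8 of them in all alternatives, and the mean over the list was 4.85 to 4.94 on sham arrays and 5.76 to 6.10 on I/R arrays. Among the markers named for monocytes, S100a4 and Plac8 rose, while Ccr2 (5.80 to 6.05, then 6.13 to 6.69), F10 (4.49 to 5.09, then 4.78 to 4.95) and F13a1 (7.50 to 7.86, then 7.22 to 8.47) were not called. The part of such cells in the increases of Fn1, Vim, Cd44 and other genes they share with activated microglia was not tested.

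Neutrophil, neuron, oligodendrocyte, astrocyte, B cell and T and NK cell lists had at most 1 of 14, 13, 11, 12, 10 and 18 members past the test in either direction. Border macrophages had 2 of 12 higher, and endothelium and pericytes 2 of 11 higher and 1 lower. Among all genes 6.15% were higher and 3.63% lower, so counts in lists this short cannot show whether carry-over changed. Members above background in a group were 4 for neurons, 7 for oligodendrocytes, 7 for astrocytes, 6 for B cells and 6 for T and NK cells. Neutrophil markers were mostly background, with 3 of 14 above it in a group, but I/R C was the exception: S100a9 read 7.06 there against 3.78 to 4.22 on the other I/R arrays, and the list mean was 4.83 against 4.04 to 4.25. The T and NK cell marker Klrd1 fell at least 2.31-fold into background, and Bank1, a B cell scaffold gene, fell 2.42-fold from 9.09 to 9.57 on sham arrays to 7.88 to 8.31. The B cell marker genes Ms4a1 and Cd79a were at background on all wild-type arrays, so those defining markers were not seen beside Bank1.

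Single I/R arrays stood apart in several gene groups. Array A had the lowest mean over interferon-stimulated genes, 7.16 against 7.72 to 8.00 on arrays B to D and 6.35 to 6.53 on sham arrays. Ccl5 read 7.41 on array A and 8.93 to 9.18 on the others, and Plac8 read 5.93 and 7.57 to 8.01. Array A also had the highest mean over cell cycle genes, 7.26 against 6.93 to 7.06. Array B was low in inducible genes: Gadd45b read 6.13 there against 7.46 to 8.14, as did Ptgs2 and Nr4a1 above, and the mean over immediate-early and heat-shock genes was 8.01 against 8.46 to 8.53. Array B was also the highest of the I/R arrays in Aldoc, an astrocyte gene, at 7.20 against 4.39 to 5.95.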

How the data were processed

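The deposited log2 values of 14 Affymetrix arrays were used as given. The submitters' processing notes name RMA and oligo; the labels used here state no order or settings. Of 35556 rows, 21789 carry 1 gene symbol in the platform annotation, 1621 several and 12146 none there; for the 999 genes with several rows, the row of highest average signal over the 14 arrays was kept. The authors' values were fitted with limma 3.58.1 in R 4.3.3 (4 group means, 10 residual degrees of freedom, default empirical Bayes), with Benjamini-Hochberg adjustment over 19938 genes; the script was tested on simulated data. Array medians lay between 4.93 and 5.12 on the wild-type arrays. Fold changes are 2 to the power of the difference of log2 group means.

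The comparison and all lists were chosen with earlier results of these data known, and lists were counted, not tested. Named genes were taken from the 20 highest and 20 lowest called genes above background outside the interferon, cell cycle and disease-associated lists, up to 6 called members with the smallest p in each list or family, and defining genes or partners of those named. Aldoc, Elmo1, Mertk, Mylip, Nr4a1, Pank2 and Plaur were chosen after their values were seen, as were the genes so described in the text. Tnf and Itgav are named from their list counts only and are not among the named genes counted in the closing section. Alternatives are in the closing section.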

Additional observations from a re-analysis of the deposited data

Results flagged for a closer look

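In 406 groups of 4 arrays, 1 for each named gene or list mean in each wild-type group, 28 held 1 array far from the other 3 by Dixon's criterion at 95% (6.90% of the groups). Chance alone marks about 1 group in 20.

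On I/R array B the genes stood apart in both directions. Ptgs2 read 5.54 there against 8.08 to 8.46 on the other I/R arrays, Id2 8.38 against 9.07 to 9.09 and Ran 9.43 against 9.71 to 9.72. The mean over immediate-early and heat-shock genes was 8.01 against 8.46 to 8.53. Tgfbr1, which fell after I/R, read 10.99 against 10.70 to 10.74, Selplg 11.62 against 11.40 to 11.42 and C1qa 11.13 against 10.77 to 10.81.

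On I/R array A, Ccl5 read 7.41 against 8.93 to 9.18, Anxa5 9.78 against 10.08 to 10.13 and Jund 6.96 against 6.66 to 6.71. On I/R array C, S100a9 read 7.06 against 3.78 to 4.22. On I/R array D, Lilrb4a read 9.73 against 9.41 to 9.44, Fh1 8.71 against 8.48 to 8.52 and Nqo1, which is at background, 2.99 against 3.35 to 3.42.

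Among the sham arrays, array C was the one in 8 groups. Fxyd5 read 7.14 there against 7.99 to 8.00, Mif 9.46 against 10.04 to 10.16, Fh1 7.48 against 8.16 to 8.24, Ptger2 3.38 against 3.59 to 3.63 and the mean over the proteasome list 8.75 against 9.17 to 9.24. Elmo1 read 10.56 against 10.19 to 10.24, Lifr 8.56 against 8.14 to 8.17 and Mir130b 4.72 against 4.68 to 4.68. On sham array A, Slc43a3 read 7.11 against 6.23 to 6.37, Dusp6 9.66 against 9.27 to 9.31, Zfp113 8.31 against 8.20 to 8.22 and Prkce 6.42 against 6.73 to 6.79. On sham array D, Ccl5 read 6.66 against 5.70 to 5.87 and Mir103-2 5.49 against 6.49 to 6.62.

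Array rows outside the gene table also differed between the groups by the same limma model, with p adjusted over each kind of row. Of 1621 rows annotated to several gene symbols, 66 were called, 54 of them higher and 12 lower after I/R. Of 12146 rows without a symbol in the annotation used here, 112 were called, 64 higher and 48 lower.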

How the results depend on the processing

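The 16 alternatives changed the arrays in the model, the variance settings, array weights, scaling, the filter on dim genes, the choice of row, the letter block and the arrays used. Between 1344 and 2222 genes were called, against 1950. Centring each array on its median gave 393 lower genes instead of 724. Leaving out 1 array gave 1344 to 1962 genes called, with 931 to 1282 higher and 413 to 692 lower; the lower count was 473 without I/R A, 423 without I/R C and 413 without I/R D. The count of genes lower by 2-fold or more was 27, ranged from 23 to 54 with 1 array left out, the last without I/R B, and was 18 with arrays centred. The cause was not tested.

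Whether the letters A to D pair the arrays is not known. Deviations from the group mean correlated at -0.06, 0.0023, 0.13 and 0.03 between arrays of the same letter. Not every array correlated best with its own letter. With so few arrays in each group, these correlations cannot decide whether the letters mark pairs. With the letter as a replicate block 2037 genes were called, 1300 higher and 737 lower, with 472 and 31 past 2-fold; of the named genes it changed the call of Aldoc (adjusted p = 0.0454) and of no other.

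Of 167 named genes that were called, 157 kept their call and direction in all alternatives that tested them and 0 changed sign. Csf1r, Fh1, Gadd45b, Mertk, Nr4a1, Osm, P2ry12, Pfkp, Suclg2 and Tlr4 lost their call at least once; for Gadd45b that was without I/R C (adjusted p = 0.0555). Aldoc also passed without I/R B (adjusted p = 0.0364) and without sham C (0.0413), Ccr2 with arrays centred (0.0405), and Igf1r without dim genes (0.0499) and without sham B (0.0467). Sign changes occurred in 8 genes that were not called. Hk2 changed by 0.0221 with arrays centred and by -0.0759 to 0.0014 with 1 array left out. Plau changed by 0.0176 with arrays centred and by -0.166 to 0.0321 with 1 array left out, and Il1a by -0.0193 under quantile normalization and by -0.031 to 0.144 with 1 array left out. With 1 array left out, Ctsb ranged from -0.011 to 0.0335, F10 from -0.0051 to 0.195, Ms4a1 from -0.0021 to 0.105, F13a1 from -0.114 to 0.305 and S100a9 from -0.494 to 0.60; the lowest values of F13a1 and S100a9 were without I/R C.

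Of 3360 list counts under an alternative, 2904 stayed within 1.5 times of the reported count. Replacing the median change of a list by its mean moved 57 of 105 values by more than the spread of the list's mean between arrays. Small changes of genes near background are limited by the signal the probes give there, and 4 arrays a group limit the precision of all values.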
